A study of Mus musculus with 48 samples.

Results

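Mouse Kupffer cells, which are the macrophages that live in the liver, were compared after 3 days and after 1 day of co-culture with Ito cells, also called hepatic stellate cells, which store vitamin A. The arrays were chosen by their titles alone, which gave 3 arrays for 3 days and 3 arrays for 1 day, 6 of the 48 arrays of the series. In both groups the Kupffer cells came from livers of Balbc male mice, were sorted with magnets for the macrophage antigen that Adgre1 encodes, and were kept for 1 day with MCSF, the growth factor that maintains macrophages, before Ito cells were added. No genotype, age or pooling of animals is named in the labels, which do not say whether Ito cells were kept apart from the macrophages, taken out before lysis, or cultured with MCSF still present. A longer time with Ito cells was also a longer time in culture, and within these 6 arrays the effects of these 2 times cannot be told apart. The titles call the replicates biological, and the p-values measure only the spread between such samples.

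Kupffer cells line the liver sinusoids, where they take up particles and dying blood cells and release cytokines when danger signals reach their toll-like receptors. Much of that cytokine program is switched on by the transcription factor NF-kB, which also induces its own inhibitors. Ito cells store retinyl esters in the healthy liver and, when activated by injury and by macrophage products such as TGF-beta and PDGF, become contractile, collagen-secreting myofibroblasts.

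Values are log2 signals of Affymetrix arrays, 1 array per sample, after quantile normalization of the 6 arrays, which was applied because the medians of the deposited arrays lay between 5.27 and 5.51 after 3 days and between 4.68 and 4.73 after 1 day. After it, arrays correlated at 0.992 to 0.994 within 3 days, at 0.993 to 0.994 within 1 day and at 0.946 to 0.952 between the days. The negative control probe sets of the arrays averaged 5.29 after 3 days and 5.44 after 1 day, and a gene whose arrays of 1 group all lay under them is called below background there. For such a gene only a bound is given: the mean of the brighter group against the mean, over the arrays of the dimmer one, of the higher of the negative control mean and the gene's own signal. For 12 named genes that lay under the controls on some arrays of the dimmer group, any fold given is the same bound. Differences are 3 days minus 1 day on the log2 scale ± limma SE, p-values are limma's with the Benjamini and Hochberg adjustment across the 19505 genes, and rose and fell are used only for genes with an adjusted p under 0.05. The number of arrays limits the precision, and signals near the highest deposited value may understate a difference. These are bulk cultures, so fewer cells of a type and less RNA per cell cannot be told apart.

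As a list, core macrophage genes lay well above background at both times, with means of 14.15 to 14.18 after 3 days and 14.86 to 14.97 after 1 day. Of the 14 measured, 1 lay below background on all 6 arrays. The cultures thus carried transcripts of the labelled cell class. Lyz2, the macrophage lysozyme, had log2 signals of 19.08, 18.98 and 19.29 after 3 days, against 19.29, 19.39 and 19.50 after 1 day. Of 20 markers used to set Kupffer cells apart from other macrophages, 5 lay below background on all 6 arrays, among them Clec4f, the Kupffer cell lectin. Slc40a1, the iron exporter ferroportin, was well above it, with 13.47 ± 0.51 after 3 days and 11.07 ± 0.17 after 1 day. Vsig4, a complement receptor, lay nearer the negative controls (5.29 and 5.44), with 6.49 ± 0.34 after 3 days and 6.11 ± 0.26 after 1 day (SD, n = 3 each). Of the 18 measured genes that identify Ito cells, 15 lay below background on all 6 arrays, among them Lrat, the enzyme that esterifies retinol, Des, the filament protein desmin, and Gfap and Reln. The array therefore gave little signal from most genes of this list at either time. Its brightest member averaged 13.70 after 3 days and 15.29 after 1 day. Acta2 and Dcn, stromal genes given further on, also lay above the controls at both times (11.05 and 8.72 for Acta2, 8.84 and 10.92 for Dcn). Which cells carried these transcripts was not tested.

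Of the 19505 genes tested, 7760 (39.8%) passed, 4212 (21.6%) higher after 3 days and 3548 (18.2%) lower. In 9799 genes (50.2%) the 3 arrays of one day did not overlap with those of the other. Among the genes that passed, 1909 rose and 1616 fell by at least 2-fold, 67 rose and 140 fell by at least 16-fold, and 6 rose and 43 fell by at least 64-fold, so the very large fitted differences were mostly falls. These fitted sizes include genes at background in one group. A total of 1895 of the 7760 lay below background on all 6 arrays, which left 3153 that rose and 2712 that fell with signal above the negative controls on at least 1 array. The balance of directions rests on the scaling: 54.3% of the called genes were higher after quantile normalization, 84.5% in the values as deposited, where the median of all genes lay 0.51 above 0, and 38.3% after median centring, where it lay at -0.13. After quantile normalization the median of all genes was 0.04.

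The largest fitted falls were in genes of inflammation and tissue remodelling. Il1b, the cytokine interleukin-1 beta, had log2 signals of 5.40, 5.26 and 5.63 after 3 days, against 17.77, 17.61 and 17.48 after 1 day. It lay within 0.4 of the negative controls in all 3 later arrays and was at least 4628-fold lower there (limma adjusted p = 3.21e-14). Il1a, interleukin-1 alpha, had 7.42, 6.86 and 7.69 after 3 days, against 17.36, 17.08 and 17.14 after 1 day (-9.87 ± 0.22, limma adjusted p = 1.19e-12). Il6, interleukin-6, had 5.13, 4.75 and 5.32 after 3 days, against 14.27, 14.36 and 14.39 after 1 day (at least 527-fold lower, limma adjusted p = 7.83e-13). All 3 cytokines were thus high in every early array and low in every later array, with no overlap. Ccl22, a chemokine for T cells, averaged 4.56 ± 0.64 after 3 days and 13.64 ± 0.22 after 1 day, and Inhba, the activin A subunit, 6.28 ± 0.53 after 3 days and 14.76 ± 0.10 after 1 day (SD, n = 3 each). Mmp9, gelatinase B, was at least 388-fold lower after 3 days, where it was below background. The same held for Prg4, the lubricin proteoglycan (at least 574-fold), for Ms4a8a, a membrane-spanning protein of macrophages (at least 600.0-fold), for Tnfrsf9, the costimulatory receptor CD137 (at least 182-fold), and for Slc7a2, a cationic amino acid transporter (at least 251-fold). Plxdc2, a transmembrane receptor, and Upp1, uridine phosphorylase, complete the 12, with a difference of -8.70 ± 0.23 for Plxdc2 and a level at least 286-fold lower for Upp1.

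The largest rises were smaller than the largest falls. Mpo, the myeloperoxidase of granulocyte precursors and monocytes, had log2 signals of 16.07, 15.11 and 16.07 after 3 days, against 7.003, 7.85 and 6.61 after 1 day (8.60 ± 0.31, limma adjusted p = 8.1e-11). Prtn3, the primary granule protease 3, had 14.30, 13.25 and 13.85 after 3 days, against 7.03, 7.16 and 7.40 after 1 day (6.60 ± 0.24, limma adjusted p = 9.47e-11). Ednrb, the endothelin receptor B, had 15.83, 16.36 and 15.95 after 3 days, against 9.76, 9.79 and 10.06 after 1 day (6.17 ± 0.20, limma adjusted p = 3.01e-11). Each of these 3 was high in all later arrays and lay at least 5 log2 units lower in all early ones. Hpgds, the prostaglandin D synthase, averaged 14.22 ± 0.13 after 3 days and 7.74 ± 0.03 after 1 day. Folr2, the folate receptor beta of tissue macrophages, averaged 14.52 ± 0.07 after 3 days and 8.85 ± 0.53 after 1 day (SD, n = 3 each). Gas6, the bridging ligand with which macrophages bind dying cells, was at least 57.7-fold higher after 3 days, since it was below background after 1 day, as were Selenom, a selenoprotein of the endoplasmic reticulum (at least 69.1-fold), and Prl2c2, a prolactin family hormone with near-identical copies (at least 23.9-fold). Nav2, a neuron navigator protein, and Cdk1, the mitotic kinase, rose at least 53.1-fold and 35.3-fold. Serpinb9b, a serine protease inhibitor, and Lrrc27, a leucine-rich repeat protein, rose by 5.48 and 5.41 on the log2 scale.

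**Figure D1:**
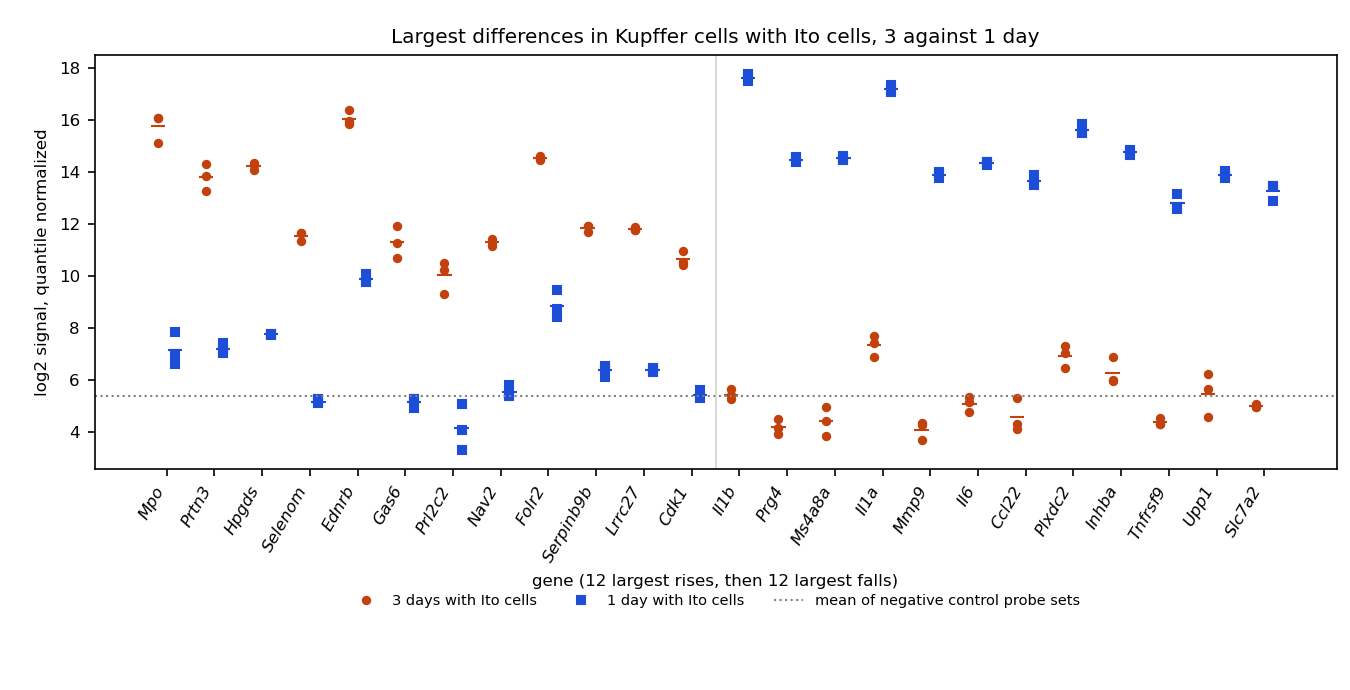
Log2 signal (vertical axis, quantile normalized) of the 12 genes with the largest rises and the 12 with the largest falls; each point is 1 array, bars are means of 3, circles are 3 days and squares 1 day with Ito cells, and the dotted line is the mean of the negative control probe sets. Il1b is at 5.43 after 3 days and at 17.62 after 1 day, Mpo at 15.75 and 7.15, and in none of the 24 genes do the days overlap.

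Cytokines and chemokines fell across their lists. Of 19 proinflammatory cytokines and mediators measured, 0 rose and 15 fell (median -2.71, beside 18.2% falling and a median of 0.04 over all genes). Besides the interleukins above, Csf3, the granulocyte growth factor G-CSF, fell at least 36.8-fold and Il12a, a subunit of interleukin-12, at least 66.1-fold. Ptgs2, cyclooxygenase 2, had 10.54 ± 0.98 after 3 days and 16.19 ± 0.30 after 1 day. Tnf did not pass, with 13.05, 11.56 and 12.83 after 3 days and 13.05, 13.09 and 13.28 after 1 day, so that 2 later arrays lay within 0.5 of the early ones and replicate 2 lay below them. It did pass after median centring (-1.16) and without replicate 1 of 3 days (-0.96). Nos2, the inducible nitric oxide synthase, fell at least 3.97-fold.

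Of 28 chemokines 3 rose and 22 fell (median -2.51). Cxcl1, which draws neutrophils, had 6.39, 5.599 and 7.50 after 3 days, against 13.31, 13.75 and 14.13 after 1 day (-7.23 ± 0.37, limma adjusted p = 2.11e-09). Cxcl2, of the same receptor, had 12.89, 11.48 and 13.44 after 3 days, against 18.38, 18.37 and 18.36 after 1 day. Both fell in every array, and replicate 2 of 3 days was the lowest of the later arrays in both. Cxcl9 and Ccl17, chemokines for T cells, were below background after 3 days and at least 13.9-fold and 35.4-fold lower. Cxcl13, the B cell chemokine, averaged 5.28 ± 0.59 after 3 days and 9.73 ± 0.12 after 1 day. Ccl2, the main chemokine for monocytes, stayed bright, with 18.12 ± 0.19 after 3 days and 18.78 ± 0.08 after 1 day. The 3 that rose were Ccl8, a ligand of monocyte and T cell receptors (22.1-fold), Cxcl12, which retains blood precursors in their niche (at least 3.33-fold), and Ccl20, a ligand of CCR6 (at least 1.41-fold).

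Genes listed as NF-kB feedback, which NF-kB induces and which include its inhibitors, fell as well: of 15, 1 rose and 12 fell (median -2.07). Nfkbia, the inhibitor I-kappa-B alpha, had 11.83, 11.09 and 12.19 after 3 days, against 14.18, 14.16 and 14.28 after 1 day (5.66-fold lower). Sod2, the mitochondrial superoxide dismutase and not an inhibitor of NF-kB, averaged 12.43 ± 0.38 after 3 days and 16.70 ± 0.25 after 1 day. Tnip3, an inhibitor of NF-kB signalling, was the 1 that rose (1.54 ± 0.24). Neutrophil marker genes fell in the same arrays (9 of 12), and so did T, B and dendritic cell markers given further on, whose part in these falls was not tested. The promoters of Il6, Cxcl1 and Cxcl2 are shown because these genes carry the NF-kB motif in the 150 bases before their start. Letters are from RefSeq (GRCm38.p6), and capitals mark matches to GGGA, any 4 bases and CC on either strand, where overlapping matches run together.
Il6: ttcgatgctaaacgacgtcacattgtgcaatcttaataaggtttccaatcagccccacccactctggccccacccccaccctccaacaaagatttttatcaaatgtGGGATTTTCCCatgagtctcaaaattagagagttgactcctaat
Cxcl1: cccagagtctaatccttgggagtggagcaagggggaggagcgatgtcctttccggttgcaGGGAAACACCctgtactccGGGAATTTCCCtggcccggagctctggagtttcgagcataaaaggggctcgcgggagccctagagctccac
Cxcl2: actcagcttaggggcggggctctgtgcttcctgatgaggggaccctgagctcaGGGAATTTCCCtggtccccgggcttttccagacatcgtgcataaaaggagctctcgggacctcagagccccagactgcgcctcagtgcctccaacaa
They lie at chr5:30012964-30013113 on the plus strand, chr5:90891095-90891244 on the plus strand and chr5:90903749-90903898 on the plus strand. Among promoters found in RefSeq, 7 of 13 NF-kB feedback genes (53.8%) and 8 of 19 chemokines (42.1%) held the motif, against 2 of 14 of the cytokine list (14.3%) and 11.8% of all 27025 promoters. A match is a run of letters only and no test of binding. The feedback list was drawn up as genes that NF-kB induces, so a high share there is no result of these arrays.

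Antigen presentation genes fell together. All 11 measured genes of MHC class II and costimulation fell (median -2.96). H2-Aa, a class II chain, had 7.96, 7.33 and 8.11 after 3 days, against 14.03, 13.38 and 13.43 after 1 day (56.1-fold lower, limma adjusted p = 3.01e-10). Cd86, a costimulatory ligand for T cells, had 7.15, 7.06 and 6.94 after 3 days, against 12.32, 12.28 and 11.97 after 1 day (35.3-fold lower). The arrays of the 2 days did not overlap in either gene. Cd80, its partner ligand, averaged 10.76 ± 0.13 after 3 days and 15.30 ± 0.23 after 1 day, and H2-Eb1 was below background after 3 days and at least 22.9-fold lower. Dendritic and B cells also express these genes, and Itgax and Cd79a, markers of each, fell at least 7.06-fold and 23-fold.

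Of 16 toll-like receptor genes 10 fell and 2 rose (median -0.79), beside 18.2% falling and 21.6% rising over all genes. Tlr2, the receptor of bacterial lipoproteins, had 10.48, 10.33 and 10.52 after 3 days, against 16.22, 16.29 and 16.17 after 1 day (55.1-fold lower), while Tlr4, the lipopolysaccharide receptor, fell by 0.91 on the log2 scale. Ticam1, the TRIF adaptor, rose (1.52 ± 0.20). Of 20 genes of alternative activation, the interleukin-4 type response, 14 fell and 3 rose (median -2.06). Arg1, arginase 1, had 12.26, 12.42 and 13.06 after 3 days, against 18.51, 18.49 and 18.64 after 1 day (62.5-fold lower, limma adjusted p = 8.34e-11). It fell in every array and still stood far above background in the later cultures. Pdcd1lg2, the PD-L2 ligand, was at least 24.5-fold lower. Mrc1, the mannose receptor, did not pass, with 15.61 ± 0.60 after 3 days and 14.95 ± 0.34 after 1 day, but passed without replicate 1 of 3 days (0.88). Members of both the inflammatory and the alternative activation list thus mostly fell between these days.

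Cell cycle genes rose without exception. All 33 measured genes rose (median 3.49, beside 21.6% of all genes). Mki67, the proliferation antigen, had log2 signals of 15.71, 15.25 and 15.53 after 3 days, against 10.88, 11.23 and 10.81 after 1 day (22.9-fold higher, limma adjusted p = 5.28e-10). Cdk1, the kinase that starts mitosis, had 10.55, 10.96 and 10.40 after 3 days, against 5.30, 5.61 and 5.32 after 1 day (at least 35.3-fold higher, limma adjusted p = 1.4e-10). In the early arrays Cdk1 lay within 0.2 of the negative controls, and it was well above them in the later ones. Ube2c, a ubiquitin enzyme of mitotic exit, rose 22.9-fold, Plk1, a mitotic kinase, 17.5-fold, Cenpe, a kinetochore motor, 19.8-fold and Mcm5, part of the replicative helicase, 15.9-fold. The smallest rise was that of Cenpf, a kinetochore protein (1.33 ± 0.20). Bile duct genes and the granule genes Mpo and Prtn3 rose in the same arrays, so which cells carried the cell cycle transcripts was not tested.

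Promoters of 3 cell cycle genes are shown because they carry the CCAAT box or the CHR, elements known from many mitotic promoters. Ccnb2, mitotic cyclin B2 (4.66 ± 0.21), was picked for its boxes after its value was seen. Capitals mark CCAAT and TTTGAA on either strand in the 150 bases before the start (RefSeq, GRCm38.p6).
Cdk1: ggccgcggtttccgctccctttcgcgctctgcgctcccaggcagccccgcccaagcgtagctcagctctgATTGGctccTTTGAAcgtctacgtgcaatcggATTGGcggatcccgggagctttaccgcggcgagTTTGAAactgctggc
Ccnb2: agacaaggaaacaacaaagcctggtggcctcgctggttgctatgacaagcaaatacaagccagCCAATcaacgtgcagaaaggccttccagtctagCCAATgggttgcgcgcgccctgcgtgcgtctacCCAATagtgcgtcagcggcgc
Ube2c: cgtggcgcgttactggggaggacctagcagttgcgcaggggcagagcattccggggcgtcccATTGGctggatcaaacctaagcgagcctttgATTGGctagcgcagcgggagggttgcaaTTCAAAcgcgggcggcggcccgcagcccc
They lie at chr10:69352913-69353062 on the minus strand, chr9:70421555-70421704 on the minus strand and chr2:164769779-164769928 on the plus strand. The CCAAT box was in 19 of 28 cell cycle promoters found (67.9%) and in 25.3% of all promoters, and the CHR letters in 7 of 28 (25%) and in 9.24% of all. Such elements are known from these promoters, so the shares describe the list and are no result of these arrays.

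Energy and lipid genes moved in both directions, beside 21.6% of all genes rising and 18.2% falling. Of 24 respiratory chain genes 14 rose and 1 fell (median 0.92). Cox5a, a subunit of cytochrome c oxidase, had 12.52, 13.03 and 12.73 after 3 days, against 10.39, 10.58 and 10.41 after 1 day (4.92-fold higher), and Sdha, the catalytic subunit of succinate dehydrogenase, was the 1 that fell (-1.35 ± 0.23). Of 22 glycolysis and hypoxia genes 12 fell and 2 rose (median -0.75). Hk2, hexokinase 2, fell 4.96-fold and Slc16a3, the lactate exporter, 9.44-fold, while Ldha, lactate dehydrogenase, had 17.26 ± 0.21 after 3 days and 17.35 ± 0.10 after 1 day. Of 19 cholesterol synthesis genes 12 rose and 1 fell (median 0.76). Dhcr7, its last enzyme, had 8.82, 8.21 and 8.24 after 3 days, against 5.66, 5.67 and 5.72 after 1 day (6.69-fold higher). In fatty acid synthesis 7 of 11 rose, led by the desaturases Fads2 (5.69-fold) and Fads1 (7.29-fold), and 2 fell, Acly, ATP citrate lyase (3.57-fold), and Scd1, the stearoyl desaturase (3.08-fold).

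The lists given next are to be read beside the 21.6% of all genes that rose and the 18.2% that fell. Lipid handling genes under the sterol receptor LXR split, 5 up and 5 down of 15. Abca1, the cholesterol exporter, had 9.001, 9.05 and 8.85 after 3 days, against 15.17, 15.16 and 15.39 after 1 day (77.4-fold lower, limma adjusted p = 9.22e-12). Lpl, lipoprotein lipase, had 16.39, 16.01 and 16.21 after 3 days, against 11.86, 12.58 and 12.32 after 1 day (15.5-fold higher), and Trem2, a lipid-sensing receptor, rose 7.94-fold. Nr1h3, LXR alpha itself, had 6.11 ± 0.07 after 3 days and 6.27 ± 0.09 after 1 day. Of 21 lysosome genes 7 rose and 4 fell (median 0.46), with Lipa, lysosomal acid lipase, 9.58-fold higher and Atp6v0d2, a proton pump subunit, 8.19-fold lower. With median centring the lysosome count was 4 up and 10 down, so its direction rests on the scaling. Of 17 targets of the antioxidant factor NRF2 7 rose and 3 fell, against 6 higher and 6 lower after median centring. Cat, catalase, rose 5.88-fold, whereas Slc7a11, the cystine importer, had 14.70, 12.50 and 13.96 after 3 days, against 17.41, 17.32 and 17.49 after 1 day. Of 20 integrated stress and serine genes 10 rose and 5 fell, with Shmt2, of serine and folate metabolism, 4.52-fold higher.

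**Figure D2:**
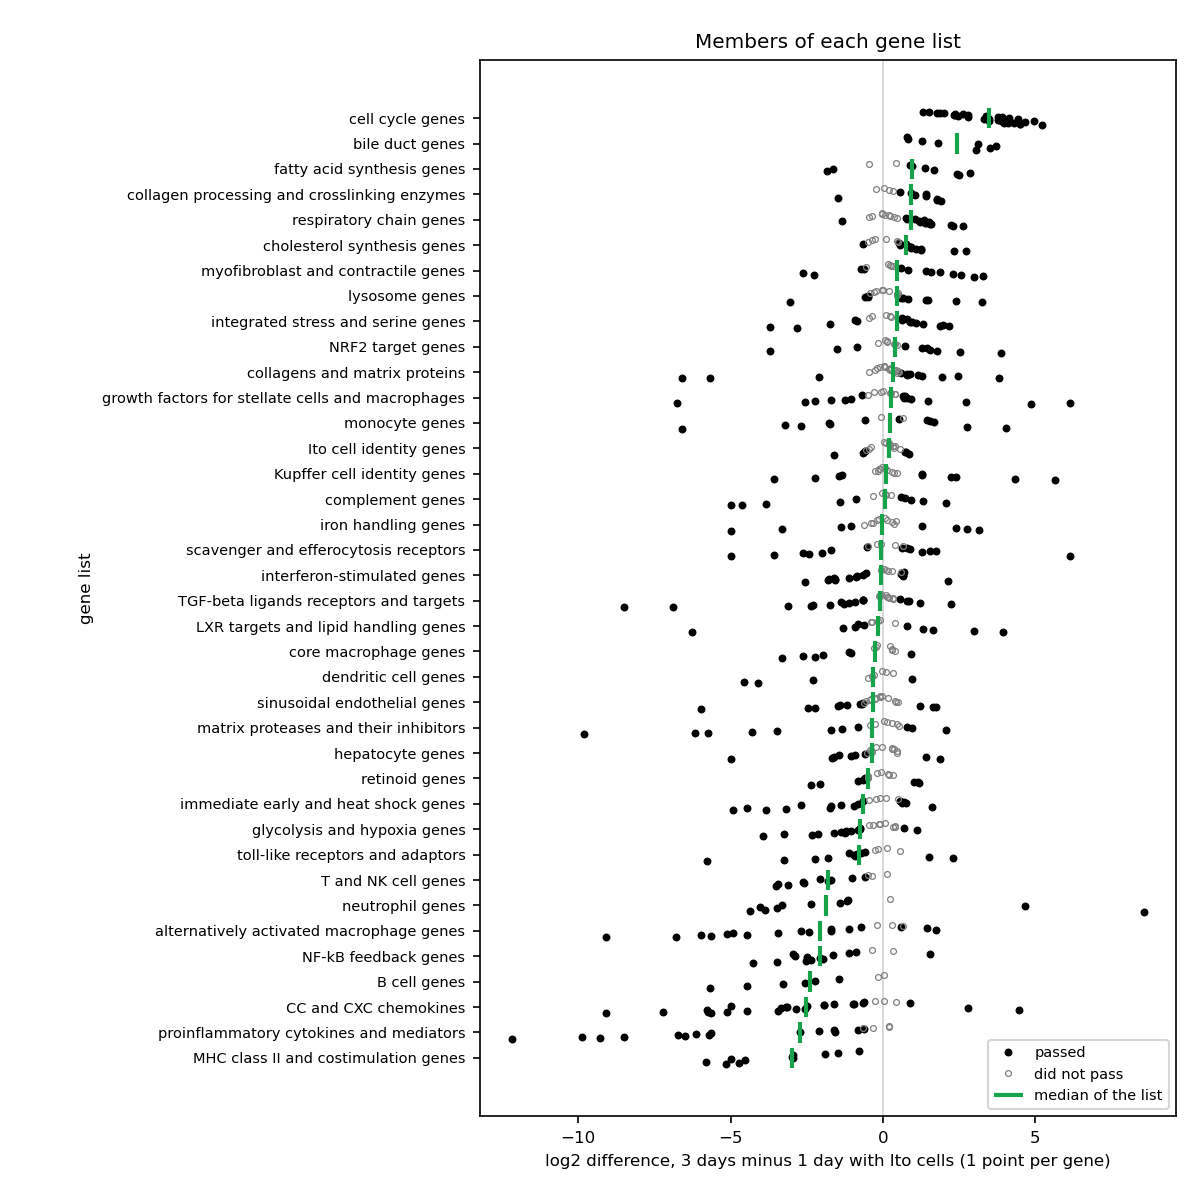
Log2 difference, 3 days minus 1 day with Ito cells (horizontal axis), of each measured gene of 38 lists, ordered by the median (green bar); filled points passed the test and open points did not. Cell cycle genes lie all to the right with a median of 3.49, and MHC class II and costimulation genes all to the left with -2.96.

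Genes of macrophage identity did not move as 1 block. Of 14 core macrophage genes 6 fell and 1 rose. Adgre1, which encodes the antigen used in the sort, had 12.97, 13.35 and 12.96 after 3 days, against 15.37, 15.24 and 15.37 after 1 day (4.71-fold lower, limma adjusted p = 3.57e-07). Csf1r, the MCSF receptor, had 16.20, 15.79 and 16.03 after 3 days, against 14.96, 15.17 and 15.05 after 1 day (1.93-fold higher, limma adjusted p = 0.00104). The 2 most used markers of the lineage thus moved in opposite directions, and Csf1r was no longer called after median centring (0.20). Itgam, the integrin CD11b, fell 9.92-fold.

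Of 20 Kupffer cell identity genes 6 rose and 4 fell (median 0.10), beside 21.6% rising and 18.2% falling over all genes. Cd5l, a secreted scavenger protein, had 8.02, 8.80 and 8.49 after 3 days, against 3.70, 4.20 and 4.37 after 1 day, where it was below background (at least 7.98-fold higher). Id3, a transcription regulator needed for Kupffer cells, rose at least 3.17-fold, and Slc40a1 5.26-fold. Timd4, a receptor for dying cells, passed but reached only the level of the negative controls (5.28 ± 0.08 after 3 days, 3.99 ± 0.14 after 1 day). Marco, a scavenger receptor, averaged 5.52 ± 0.44 after 3 days and 9.08 ± 0.44 after 1 day. Of 14 monocyte genes 6 rose and 6 fell. Ccr2, the receptor by which monocytes leave the marrow, had 11.97, 11.61 and 12.08 after 3 days, against 7.61, 7.95 and 7.97 after 1 day (16.5-fold higher), while Chil3, a chitinase-like protein, fell 6.41-fold. Scavenger and efferocytosis receptors split 7 up and 7 down of 19. Colec12, a scavenger lectin, fell 31.5-fold and Mertk, a receptor of Gas6, 6.09-fold. Complement genes split 5 up and 5 down of 15. C1qa fell 24.7-fold, while C1qb and C1qc, the other chains of the same C1q protein, passed with 0.73 and 0.61. Without replicate 2 of 3 days these 2 no longer passed (0.50 and 0.38), nor did they without replicate 2 of 1 day (0.58 and 0.65) or after median centring (0.05 and 0.13), and C1qc was also lost without replicate 1 (0.61) or 3 (0.56) of 1 day. Of 18 iron genes 4 rose and 4 fell, shares near those of all genes (21.6% and 18.2%), and 4 rose and 9 fell after median centring. Among them were Tfrc, the transferrin receptor, 6.89-fold higher and Trf, transferrin, 31.7-fold lower.

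Among genes of the myofibroblast state more rose than fell, mostly from low levels. Of 18 contractile genes 9 rose and 4 fell (median 0.48). Acta2, smooth muscle actin, had 11.02, 11.09 and 11.03 after 3 days, against 9.14, 8.74 and 8.28 after 1 day (5.01-fold higher, limma adjusted p = 1.13e-06). Tagln, an actin-binding protein of smooth muscle, rose at least 4.09-fold and Tpm1, tropomyosin 1, 5.92-fold, whereas Cald1, caldesmon, fell 4.77-fold. Of 28 collagen and matrix genes 9 rose and 3 fell, and 14 lay below background on all arrays. The fibrillar collagen genes Col1a1, Col1a2 and Col3a1 were below background after 1 day and rose at least 1.36-fold, 2.9-fold and 1.12-fold. Col1a2 had 7.49, 6.72 and 6.71 after 3 days, against 4.03, 4.65 and 4.79 after 1 day. Bgn, the proteoglycan biglycan, had 10.72, 10.59 and 10.31 after 3 days, against 6.42, 7.16 and 6.55 after 1 day (14.2-fold higher). The falls were in Fn1, fibronectin (97.5-fold), Thbs1, thrombospondin 1 (51.4-fold), both of which macrophages also make, and Dcn, decorin (4.22-fold). Of 13 collagen processing genes 8 rose and 1 fell (median 0.92), with Plod1, a lysyl hydroxylase, 3.41-fold higher and Lox, lysyl oxidase, at least 2.62-fold. Of the Ito cell identity genes 3 rose and 3 fell of 18, 4 of them below background on all arrays. These shares are near those of all genes, of which 21.6% rose and 18.2% fell. As deposited the Ito cell count was 11 higher and 1 lower, and after median centring 3 higher and 5 lower. Its balance thus rests on the scaling. Pdgfrb, the PDGF receptor beta, had 5.28 ± 0.32 after 3 days and 4.55 ± 0.35 after 1 day. Its call was lost without replicate 3 of 3 days (0.55) and without replicate 1 (0.65) or 3 (0.61) of 1 day. Of 17 retinoid genes 3 rose and 6 fell, with Rara, a retinoic acid receptor, 5.15-fold lower. In the values as deposited the retinoid count was 7 up and 2 down, so its direction rests on the scaling.

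Of 18 matrix proteases and inhibitors 8 fell and 3 rose, against 7 lower and 7 higher in the values as deposited. Over all genes 18.2% fell and 21.6% rose after quantile normalization. Mmp14, a membrane-bound activator of gelatinase, fell 72.6-fold and Mmp13, a collagenase, 53.7-fold. Timp1, their inhibitor, had 11.02, 11.05 and 10.95 after 3 days, against 8.82, 9.04 and 8.93 after 1 day (4.23-fold higher). Of 28 genes of TGF-beta signalling 13 fell and 5 rose, against 10 lower and 9 higher as deposited, so this balance rests on the scaling. Tgfb1, the ligand best known to activate Ito cells, fell 2.14-fold. Fst, follistatin, which binds activin, had 4.85, 5.03 and 5.20 after 3 days, against 11.82, 12.04 and 11.87 after 1 day, and was at least 98.5-fold lower, beside the fall of the activin subunit Inhba. Of 25 growth factor genes 10 rose and 7 fell. Igf1, insulin-like growth factor 1, had 17.53, 17.37 and 17.66 after 3 days, against 12.99, 12.41 and 12.59 after 1 day (29-fold higher, limma adjusted p = 2.68e-10). Ereg, epiregulin of the EGF family, fell 108-fold, Pdgfa, a PDGF chain, 5.85-fold, Hgf, hepatocyte growth factor, 2.36-fold and Met, its receptor, 4.64-fold.

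Markers of other liver and blood cells changed between the days as well, where 21.6% of all genes rose and 18.2% fell. All 8 bile duct genes rose (median 2.45), 3 of them below background on all arrays, and their mean level was 6.68 to 7.04 after 3 days and 4.56 to 4.72 after 1 day. Krt7, a keratin of bile duct cells, had 10.68, 10.63 and 9.18 after 3 days, against 6.59, 6.17 and 6.57 after 1 day (13.2-fold higher), with replicate 3 of 3 days the lowest of the later arrays. The keratin genes Krt8 and Krt18 rose at least 7.72-fold and 6.4-fold. Of 20 hepatocyte genes 2 rose and 7 fell, and 10 lay below background throughout. As deposited, 7 hepatocyte genes were higher and 5 lower, so this balance turns with the scaling. Alb, albumin, was well above background, with 12.97, 12.20 and 12.88 after 3 days and 13.63, 12.92 and 12.73 after 1 day. Of 26 sinusoidal endothelial genes 9 fell and 3 rose, with 16 below background on all arrays, Stab2 and Clec4g of the sinusoid among them. This balance turned as well, with 8 higher and 6 lower as deposited. Fcgr2b, an inhibitory Fc receptor shared with macrophages, fell 62.4-fold, and Pecam1, an adhesion molecule, 5.51-fold.

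Of 12 neutrophil genes 9 fell and 2 rose. The 2 that rose, Mpo and Elane, neutrophil elastase, code for primary granule proteins, made in granulocyte precursors. Elane had 12.39, 13.34 and 14.80 after 3 days, against 8.99, 8.89 and 8.63 after 1 day (25.5-fold higher), and its later arrays spread over more than 2 log2 units. Genes of later granules and mature cells fell: Ltf, lactoferrin, at least 13.7-fold, Csf3r, the G-CSF receptor, 20.6-fold, and Cxcr2, the receptor of Cxcl1, at least 9.69-fold. In the T and NK cell list 10 of 13 fell and 0 rose, Cd3e, a T cell receptor chain, at least 3.79-fold, with list means of 4.01 to 4.18 after 3 days and 5.77 to 5.94 after 1 day. In the B cell list 6 of 8 fell and 0 rose, with means of 4.20 to 4.35 after 3 days and 6.65 to 6.91 after 1 day. In the dendritic cell list 3 of 10 fell and 1 rose, with means of 4.50 to 4.56 after 3 days and 5.48 to 5.66 after 1 day. Over all genes 18.2% fell and 21.6% rose, and as deposited the dendritic list had 3 higher and 3 lower. The part of any of these cells in the other differences was not tested.

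**Figure D3:**
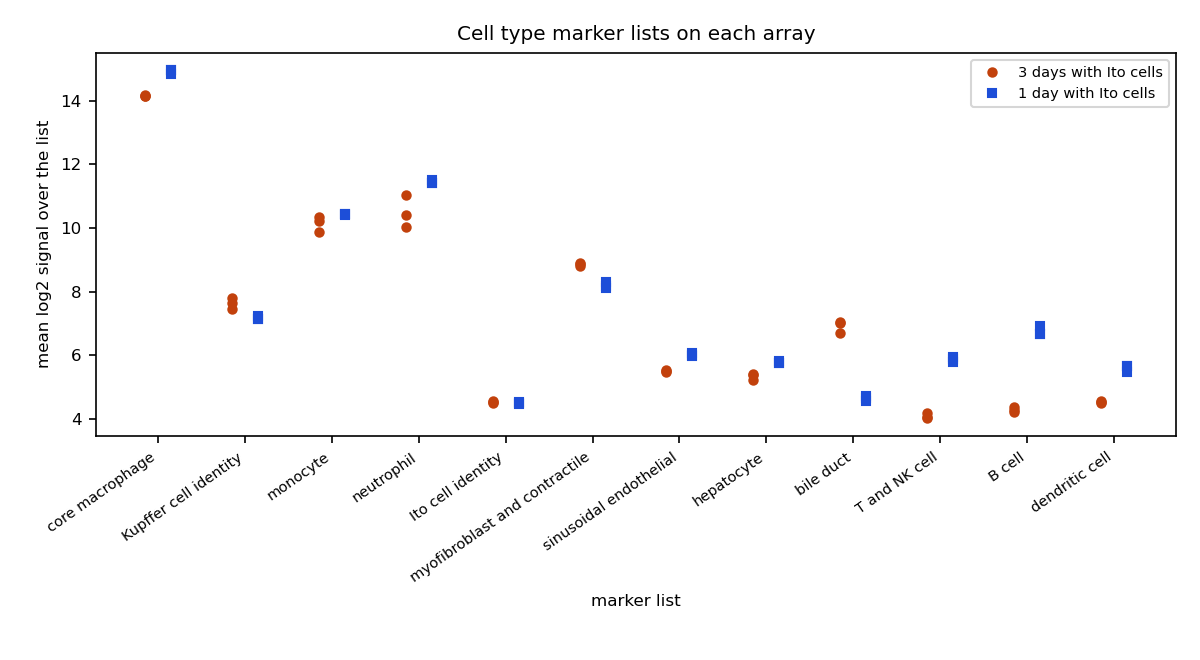
Mean log2 signal (vertical axis) over each of 12 marker lists on each array, circles for 3 days and squares for 1 day with Ito cells. Bile duct genes lie higher after 3 days, T and NK, B and dendritic cell genes lie higher after 1 day, and core macrophage genes lie between 14.15 and 14.97 on all arrays.

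Interferon and immediate early genes changed less evenly, beside 21.6% of all genes rising and 18.2% falling. Of 23 interferon-stimulated genes 6 rose and 11 fell (median -0.06), against 9 higher and 8 lower in the values as deposited. Gbp2, a guanylate-binding protein, fell 5.91-fold and Irf7, a regulator of interferon production, 3.5-fold, while Cmpk2, a mitochondrial nucleotide kinase, rose 4.4-fold and Isg15 had 5.42 ± 0.11 after 3 days and 5.23 ± 0.40 after 1 day. Of 21 immediate early and heat shock genes 11 fell and 5 rose (median -0.63). Egr2, a zinc finger factor, fell 30.3-fold, and Ier3, an early response gene of survival, 22-fold. Over the NF-kB feedback list, replicate 2 of 3 days had a mean of 8.61, against 9.36 and 9.24 in the other later arrays and 10.85 to 10.90 after 1 day.

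The change between the days was then set against the same change in 3 other cultures: Kupffer cells kept in MCSF alone, Kupffer cells with CD146 cells (the sinusoidal endothelial cells of the liver), and monocytic macrophages, grown from blood monocytes, with Ito cells. The labels name 2 and 4 days with MCSF for the MCSF cultures of 1 and 3 days, and 1 day for the cultures with added cells. In differences from the MCSF control, the added cells and the time with MCSF therefore cannot be told apart. Here all 48 arrays were normalized together and fitted with 16 group means, and the difference of the 2 changes was tested with limma. In that fit 5387 genes (27.6%) changed differently from the MCSF control, 2798 (14.3%) higher and 2589 (13.3%) lower. This split was 4490 and 2035 in the values as deposited, and 1741 and 4018 after median centring. From the CD146 culture 1878 genes (9.63%) differed, 796 (4.08%) higher and 1082 (5.55%) lower, a split that was 2251 and 757 as deposited and 532 and 1496 after median centring. From monocytic macrophages with Ito cells 480 (2.46%) differed. The MCSF arrays of 1 day correlated at 0.951 to 0.992 with one another, lower than the Kupffer arrays with Ito or CD146 cells (0.992 to 0.996), and without their replicate 1 the first count was 4595. Values of single genes below are means ± SD of 3 arrays in that joint normalization.

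Against the MCSF control, the change of 13 of 19 proinflammatory genes was lower with Ito cells and that of 1 higher (medians -2.77 and -0.21). Chemokines went both ways, 11 of 28 lower and 11 higher (medians -2.47 and -1.71). The fitted change of Il1b with Ito cells, at background after 3 days, was -12.14, whereas in MCSF it was 4.34, with 16.34 ± 0.73 after 3 days and 11.99 ± 0.58 after 1 day (difference of changes -16.48, limma adjusted p = 1.50e-16). In 31 of 33 cell cycle genes the change with Ito cells was higher (median 3.40 with Ito cells and -2.07 in MCSF). Mki67 stood at 15.43 ± 0.25 after 3 days and 10.98 ± 0.23 after 1 day with Ito cells, and at 11.97 ± 0.27 and 12.74 ± 1.40 in MCSF at the same times. NF-kB feedback genes moved apart in 13 of 15, all lower with Ito cells (medians -2.10 and 2.21), and 18 of 23 interferon-stimulated genes did so too (medians -0.06 and 2.12). The hepatocyte gene Alb stayed at 12.67 ± 0.42 after 3 days and 13.07 ± 0.45 after 1 day with Ito cells, but lay at 4.46 ± 0.41 and 15.08 ± 1.64 in MCSF. Endothelial genes were higher in their change with Ito cells in 19 of 26, where the medians were -0.33 with Ito cells and -2.03 in MCSF. Bile duct genes were so in 7 of 8 (medians 2.48 and -3.50). Kupffer cells with hepatocyte growth factor, for which the labels also name 1 day with MCSF, were not tested against these changes. There Mki67 was also higher after 3 days (15.78 ± 0.26, against 11.61 ± 0.64 after 1 day) and Il1b lower (5.72 ± 1.89, against 11.54 ± 0.77). Ednrb, which rose with Ito cells, had 13.10 ± 0.19 after 3 days and 13.17 ± 0.36 after 1 day there.

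Against CD146 cells, Il6 differed most among the lower genes. Its group means, under those of the negative controls in all but the early Ito cultures, were 5.14 ± 0.31 after 3 days and 14.28 ± 0.06 after 1 day with Ito cells, and 4.97 ± 0.50 and 4.72 ± 0.48 with CD146 cells (difference of changes -9.40, limma adjusted p = 7.63e-11). Il6 was thus high in the early Ito cultures and near background in the CD146 cultures at both times. Proinflammatory genes changed lower with Ito cells in 10 of 19 and interferon-stimulated genes in 14 of 23, whereas 10 of 17 NRF2 targets changed higher. Mpo had 15.68 ± 0.56 after 3 days and 7.26 ± 0.62 after 1 day with Ito cells, and 10.72 ± 1.10 and 12.74 ± 0.17 with CD146 cells. Cell cycle genes differed in 2 of 33 (medians 3.40 and 2.13), which does not show that the 2 changes were alike. Bile duct medians were 2.48 with Ito cells and 2.44 with CD146 cells, and of 8 genes 0 changed higher with Ito cells and 1 lower.

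Against monocytic macrophages with Ito cells, 205 genes (1.05%) changed higher and 275 (1.41%) lower in Kupffer cells. Il1b was lower after 3 days in both, with 5.52 ± 0.20 after 3 days and 17.66 ± 0.17 after 1 day in Kupffer cells, and 5.78 ± 0.20 and 17.35 ± 0.19 in monocytic macrophages (difference of changes -0.58, limma adjusted p = 0.968). That p rests on a spread pooled over all groups of the joint fit. Among them, monocytic macrophages with hepatocyte growth factor had an Il1b SD of 2.17 after 1 day. Both means after 3 days also lay near the negative controls (5.35 in Kupffer cells and 5.41 in monocytic macrophages). The test therefore does not show that the changes were alike. Mpo lay near background in the monocytic cultures at both times (5.41 ± 0.38 after 3 days and 5.49 ± 0.12 after 1 day). Interferon-stimulated genes changed higher in Kupffer cells in 15 of 23 (medians -0.06 and -2.29). Irf7 had 12.93 ± 0.29 after 3 days and 14.68 ± 0.19 after 1 day in Kupffer cells, and 7.23 ± 0.65 and 14.98 ± 0.24 in monocytic macrophages (difference of changes 6.003, limma adjusted p = 2.23e-08). Cholesterol synthesis genes changed higher in Kupffer cells in 9 of 19 (medians 0.80 and -1.02). LXR and lipid handling genes changed lower in 7 of 15 (medians -0.16 and 2.99) and scavenger receptors in 8 of 19.

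**Figure D4:**
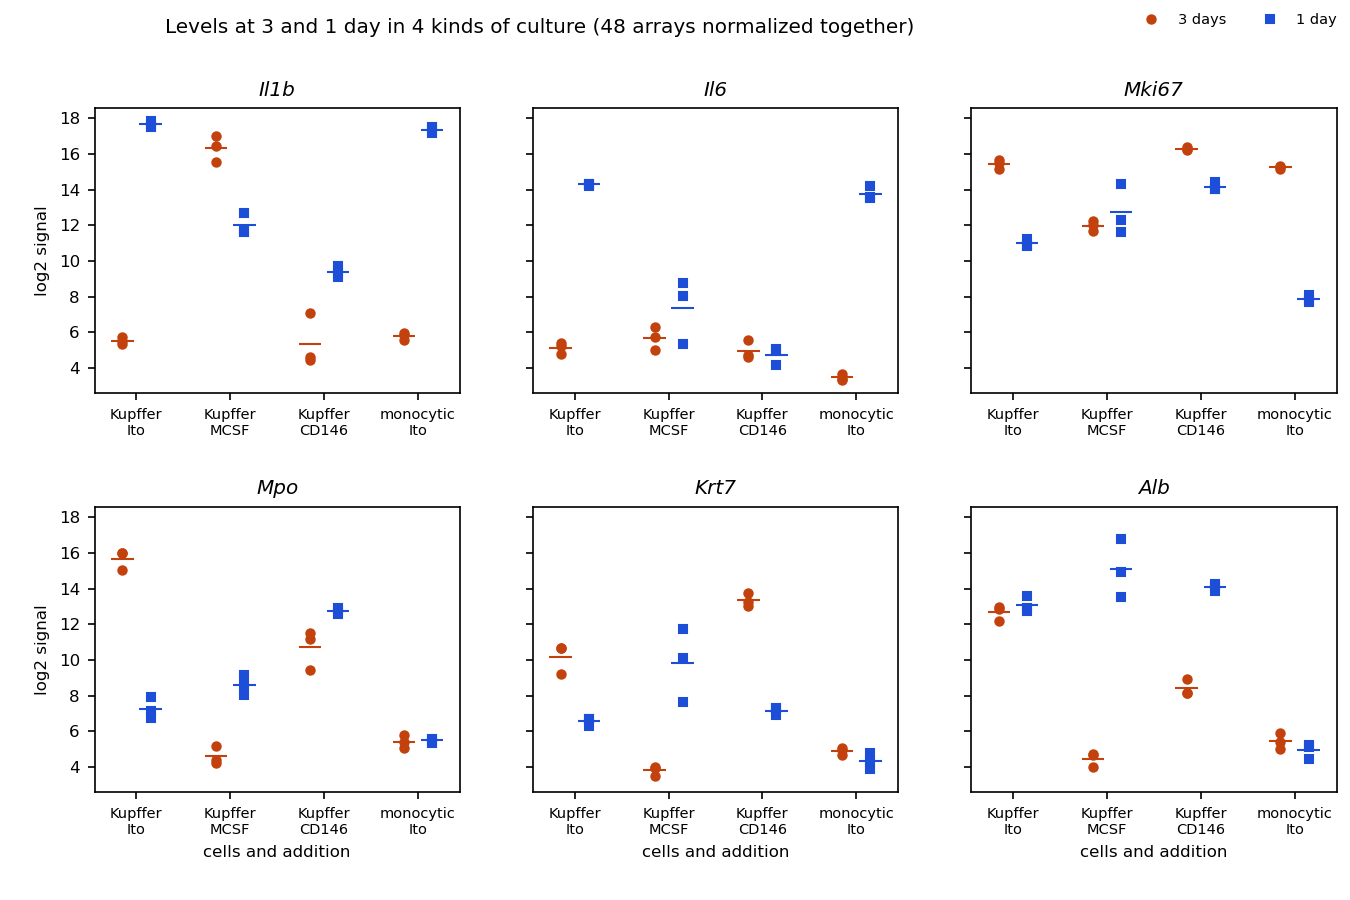
Log2 signal (vertical axis, all 48 arrays normalized together) of 6 genes in Kupffer cells with Ito cells, in MCSF or with CD146 cells and in monocytic macrophages with Ito cells; each point is 1 array, bars are means of 3, circles are 3 days and squares 1 day. Il1b after 3 days is at 5.52 with Ito cells and at 16.34 in MCSF, Mpo after 3 days is highest in Kupffer cells with Ito cells, and Alb in Kupffer cells with Ito cells is at 12.67 after 3 days and 13.07 after 1 day.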

How the data were processed

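RNA of 6 Kupffer cell cultures with Ito cells, 3 of 3 days and 3 of 1 day, was measured on Affymetrix arrays. Per the labels' protocols, cells were lysed in QIAZOL and their total RNA became biotinylated cRNA. The deposited values are log2 signals, 1 per probe set, for which the submitters' processing notes name RMA and the Transcriptome Analysis Console with no version. Of 28846 probe sets 6640 were controls and 2634 had no gene symbol. For 55 genes with several probe sets the brightest by its mean in the 48 arrays was kept, leaving 19505 genes with no filter on level. Probe sets were named from the platform annotation, 19572 with 1 symbol and 0 with several, and all 19572 matched RefSeq gene IDs.

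All probe sets were quantile normalized over the 6 arrays, and limma 3.58.1 was run in R 4.3.3 (lmFit and eBayes, two-sided, Benjamini and Hochberg over all genes, threshold 0.05), beside the package data.table, version 1.17.8. For differences of changes, all 48 arrays were normalized together and fitted with 16 group means. On data simulated from the 3 against 1 day comparison over 19505 genes, 49 of 100 genes changed 2-fold and 93 of 100 changed 4-fold were recovered, with 10 unchanged genes called. No other genes were changed there, a far smaller share than the 39.8% called in the data, so these rates need not hold for the comparison itself. Same-numbered replicates did not deviate together (correlations of 0.03, -0.03 and 0.02), so no pairing was used. Alternatives were the values as deposited, median centring, normalization over all arrays or without control probe sets (the last chosen after seeing the data), all arrays in the fit, a trend and robust variance, array weights, the dimmest 25 percent left out, the replicate block, all probe sets, a minimum of 2-fold, only the arrays of a contrast, and each array left out.

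The comparison, its members and the 38 gene lists were chosen with earlier results of these data known. Genes were named by a rule: up to 12 with the largest rise and 12 with the largest fall among those that passed without overlap of arrays, up to 5 each way for each difference of changes, up to 6 members of a list with the smallest adjusted p and members that did not pass, and a fixed set of Kupffer cell, Ito cell and cytokine genes. Unnamed gene models and near-identical gene families, such as histones and stefins, were skipped among the largest changes. Of 147 genes printed, 13 lie outside the rule and were chosen after their values were seen: C1qb, C1qc, Ccl20, Ccl8, Ccnb2, Cenpf, Cxcl12, Cxcl2, Nfkbia, Ptgs2, Sdha, Tlr4 and Tnip3. Promoter sequences are those of RefSeq (GRCm38.p6), searched over the 150 bases before the start on both strands. Figures were drawn with matplotlib 3.10.9 and pandas 2.3.3 in Python 3.11.15.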

Additional observations from a re-analysis of the deposited data

Results flagged for a closer look

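The time change of Kupffer cells with Ito cells differed from that of other cultures, by a test of the difference itself, in the genes given here, which were the 5 largest each way per contrast. Values are the change from 1 to 3 days with Ito cells first, then that of the other culture, then their difference on the log2 scale, and every adjusted p from limma was under 0.05. Against Kupffer cells in MCSF, the change was lower for Il1b (-12.14, 4.34 and -16.48). Lower differences were also those of Ccl5, a T cell chemokine (-3.18, 10.59 and -13.77) and Susd2, a sushi domain protein (-0.40, 13.21 and -13.60), and of Cxcl13 (-4.41, 9.08 and -13.49) and Slc7a2 (-8.16, 5.24 and -13.40). The change was higher for Mpo (8.42, -3.99 and 12.41), Clu, clusterin (3.37, -8.14 and 11.51) and Lmo7, a LIM domain protein (3.37, -7.23 and 10.60), and for Alb (-0.40, -10.61 and 10.21) and Ccl7, a monocyte chemokine (-0.65, -10.75 and 10.11). Without replicate 1 of the MCSF arrays of 1 day, which stood apart, these differences ran from -16.82 to -11.06 in the lower and from 9.36 to 12.41 in the higher genes.

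Against Kupffer cells with CD146 cells, the change was lower for Il6 (-9.14, 0.25 and -9.40). Lower differences were also those of Inhba (-8.30, 0.59 and -8.89) and Il1b (-12.14, -4.02 and -8.12), and of Cxcl10, an interferon-induced chemokine (-3.07, 4.94 and -8.01) and Dcn (-2.02, 5.58 and -7.61). The change was higher for Mpo (8.42, -2.02 and 10.44), Arg1 (-6.06, -13.57 and 7.51) and Elane (4.57, -2.91 and 7.48), and for Ednrb (6.08, -0.96 and 7.03) and Pf4, platelet factor 4 (-0.82, -7.42 and 6.60).

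Against monocytic macrophages with Ito cells, the change was lower for Atp6v0d2 (-2.98, 7.55 and -10.53). Lower differences were also those of Vsig4 (0.38, 7.20 and -6.82) and Ch25h, cholesterol 25-hydroxylase (-7.17, -0.47 and -6.70), and of Mfge8, a bridging protein for dying cells (0.63, 7.13 and -6.50) and Apoe, apolipoprotein E (-1.27, 4.72 and -5.99). After 3 days Vsig4, listed as a Kupffer cell marker, averaged 14.24 in the monocytic macrophages and 6.60 in the Kupffer cultures. The change was higher for Ppbp, a platelet chemokine (-3.38, -12.82 and 9.43), Mpo (8.42, -0.08 and 8.50) and Prtn3 (6.44, -0.30 and 6.74), and for Cxcl5, a neutrophil chemokine (-5.64, -12.13 and 6.49) and Prl2c2 (5.86, -0.40 and 6.26). In genes that lay under the negative controls in some groups, such as Susd2 with Ito cells at both times, part of the difference is between background values. Groups of 3 arrays were too small for a search for outlying samples. No explanation of these differences was tested.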

How the results depend on the processing

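The 7760 genes called between 3 and 1 day became 11337 in the values as deposited (9579 higher, 1758 lower), 8153 after median centring and 5719 with all arrays in the fit. With a minimum of 2-fold 1465 were called, 749 higher and 716 lower. Leaving out each array gave 6517 to 7026 genes, 3579 to 3823 higher and 2938 to 3203 lower. The replicate block, whose numbers did not pair the samples, gave 7598, and 5339, 1838 and 470 for the 3 differences of changes.

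The difference from the MCSF control covered 4595 to 5692 genes, that from CD146 cells 1374 to 1676 and that from monocytic macrophages 361 to 396 when each array was left out. The CD146 count was 3008 in the values as deposited and 4613 with only the 12 arrays of the contrast, and the monocytic count was 1191 with only those arrays. The splits of higher and lower calls moved with the scaling for the MCSF and CD146 differences, as given beside their counts. The monocytic split was 205 higher and 275 lower, 180 and 226 as deposited, and 167 and 220 after median centring.

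Of the 147 genes printed, 124 kept their call and direction in each alternative fitted for them but the 2-fold minimum, which 18 lost. The setting without the dimmest probe sets covered 145 of them, and that with all probe sets gave a total only (7774). The signs that turned were of genes not called in either setting: Clec4f (0.43), Clec4g (0.41), Nr1h3 (0.42), Reln (0.12) and Stab2 (0.085) as deposited, Gfap (-0.12) and Mrc1 (-0.066) after median centring, Clec4f with array weights (0.015), and Gfap without control probe sets in the normalization (-0.018). Leaving out each array gave -0.14 to 0.076 for Clec4f and -0.20 to 0.37 for Gfap. With all arrays in the fit C1qb, C1qc, Ccl2, Ccl20, Col1a1 and Tlr4 no longer passed. Alb, Ldha, Lyz2 and Stab2 passed as lower after median centring, and Des, Isg15 and Vsig4 as higher in the deposited values. The cause of these changes was not tested. Signals under the negative controls limit 1895 of the called genes, whose differences are between background values.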
